A study of Mus musculus with 12 samples.

Results

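Aqp4, the water channel of astrocytes, was described together with 8 genes of the astrocyte endfoot, of gap junction coupling and of glutamate handling in the mouse hippocampus, 9 of the 22236 genes in the deposited table. The 9 genes were named by symbol: Aqp4, Kcnj10, Dag1, Dtna, Gja1, Gjb6, Slc1a2, Slc1a3 and Glul. Aqp4 was included because its level rose with knockdown of Hp1bp3 in 1 strain only, so its knockdown values are given as a description without a test. The other 8 genes were added for their known roles, with earlier results of these data known, and are tested.

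The study asked how reduced Hp1bp3, a heterochromatin protein that binds HP1, alters hippocampal transcription on different genetic backgrounds. All 12 mice were males of 3 to 5 months that had received an adeno-associated virus of serotype 9 in both hippocampi, and tissue was taken at least 6 weeks later. There were 4 groups of 3 mice each: C57BL/6J (B6) mice with a scrambled short hairpin RNA (B6 Ctrl), B6 mice with a hairpin against Hp1bp3 (B6 KD), and DBA/2J (D2) mice with either virus (D2 Ctrl, D2 KD). No group lacked both surgery and virus, so every level below is that of an injected hippocampus. The RNA came from whole hippocampus and was not sorted by cell type. In such samples fewer astrocytes and less RNA per astrocyte cannot be told apart.

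Astrocytes send endfeet to blood vessels, and in the endfoot membrane the water channel AQP4 and the potassium channel Kir4.1, encoded by Kcnj10, are concentrated. Both are held there by the dystrophin-associated complex, in which dystroglycan (Dag1) spans the membrane to reach laminin and agrin of the basal lamina and alpha-dystrobrevin (Dtna) binds on the inner face. Neighbouring astrocytes are coupled by gap junctions of connexin 43 (Gja1) and connexin 30 (Gjb6). The same cells take up synaptic glutamate through GLT-1 (Slc1a2) and GLAST (Slc1a3), and glutamine synthetase (Glul) turns it into glutamine.

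Promoter windows of 300 bases, from 250 before to 50 after a transcription start, were found for 7 of the 9 genes in RefSeq on GRCm38.p6, with 8 windows in all because Dag1 has 2. The windows of Kcnj10 and Dag1 are shown because these members passed the test between the strains. The Kcnj10 window is chr1:172340960-172341259 on the plus strand and the Dag1 window is chr9:108263909-108264208 on the minus strand. Both are written 5′ to 3′ from the C57BL/6J reference, and capitals mark TTGGC on either strand, the core motif of nuclear factor I, a transcription factor family of the astrocyte lineage.
Kcnj10: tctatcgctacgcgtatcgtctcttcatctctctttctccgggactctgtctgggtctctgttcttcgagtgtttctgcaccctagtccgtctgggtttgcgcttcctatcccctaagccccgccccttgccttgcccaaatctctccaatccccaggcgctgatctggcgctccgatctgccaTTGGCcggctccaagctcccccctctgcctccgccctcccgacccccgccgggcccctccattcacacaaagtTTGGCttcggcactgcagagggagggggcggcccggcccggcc
Dag1: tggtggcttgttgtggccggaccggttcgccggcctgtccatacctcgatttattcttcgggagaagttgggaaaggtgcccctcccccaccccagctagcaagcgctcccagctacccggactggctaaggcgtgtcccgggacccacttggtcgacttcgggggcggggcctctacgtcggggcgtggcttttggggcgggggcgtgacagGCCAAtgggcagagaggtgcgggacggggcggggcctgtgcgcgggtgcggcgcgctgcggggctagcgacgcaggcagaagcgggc
The motif was found at 2 places in the Kcnj10 window and at 1 place in this Dag1 window. At 46.7% of all 32851 RefSeq windows of the same length it is a common string, and it was also present for Glul and Slc1a2. A STAT site, TTCNNNGAA (its own reverse complement), was present for Slc1a3 and in 8.3% of all windows, and an interferon-stimulated response element, searched on either strand, was present for Glul and in 3.44% of all windows. A match describes letters in the reference and is not a site shown to be used.

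In GENCODE M21 annotation of GRCm38, Aqp4 lies on the minus strand of chromosome 18 from 15389496 to 15410982, Kcnj10 on the plus strand of chromosome 1 from 172341210 to 172374085, and Dag1 on the minus strand of chromosome 9 from 108204634 to 108263958. The count of a gene combines its annotated transcripts. Aqp4, Dtna, Slc1a2 and Glul each overlap a gene on the opposite strand, and Slc1a3 overlaps a gene model of unknown coding status on its own strand. Whether the counting used strand is not given in the sources used here, so a share of reads from those neighbours cannot be told apart.

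The smallest library held 18.2 M expected counts, the largest 39.4 M and the median one 32.4 M, and Aqp4 alone had 3750 or more counts in every library. Levels are given as CPM, counts scaled to a common library size after TMM normalization, with means ± SD over n = 3 mice, and the p-values measure the spread between these mice. All 7 hippocampal neuron markers were detected. Between strains, averaged over treatments, 2 of the 7 passed the test, where 21.3% of all genes passed. Both were lower in D2: Zbtb20 (-3.27 ± 0.14 log2, edgeR adjusted p = 2.07e-08) and Prox1 (-1.82 ± 0.44, adjusted p = 0.0113). Of the 7, 5 had a fold change above 0. Whether the sampled parts of the hippocampus differed between strains was not tested. In B6, Hp1bp3 itself was at 308, 294 and 310.1 CPM in Ctrl and at 185, 182 and 259 CPM in KD. In D2 it was at 226, 215 and 234 CPM in Ctrl and at 177, 163 and 229.5 CPM in KD, so the library labelled D2 KD 3 lay within the D2 Ctrl range. The fitted change was -0.54 ± 0.15 log2 (SE) in B6 (edgeR adjusted p = 0.076) and -0.25 ± 0.15 in D2 (adjusted p = 1). Transcripts of 8 choroid plexus epithelium markers summed to 71.0 to 198 CPM in 5 libraries and to 2782 to 5234 CPM in the other 7, and they were high in 1 B6 Ctrl and in 2 libraries of each other group.

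All 9 genes passed the filter on low counts. Per kilobase of exon, and averaged over the 12 libraries, Glul had the highest level at 503 CPM per kb, followed by Slc1a2 at 270.4, Slc1a3 at 164 and Gja1 at 100.03. Kcnj10 at 67.1 and Aqp4 at 45.9 CPM per kb came next, above Gjb6 at 25.9, Dag1 at 24.2 and Dtna at 14.7. In B6 Ctrl the level of Aqp4 was 29.0 CPM per kb, below Kcnj10 at 45.4, and in B6 KD it was 66.6 CPM per kb, beside Kcnj10 at 62.4. Glutamate handling genes were thus the most abundant of the set in hippocampal RNA, and the scaffold genes the least.

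Aqp4 was about 2.3 times as high in KD as in Ctrl mice of the B6 strain and showed no such rise in D2. The mean of Hp1bp3 itself differed between KD and Ctrl by -31.3% in B6 and by -15.7% in D2. Strain and strength of knockdown therefore cannot be told apart here. In B6, Aqp4 stood at 149.5, 173 and 191 CPM in the 3 Ctrl libraries and at 357, 401 and 422 CPM in the 3 KD libraries. The groups did not overlap, and all KD libraries were far above all Ctrl libraries. Ctrl and KD libraries of B6 were separate in either direction for 27.8% of all genes, and Aqp4 was chosen for this rise. In D2, Aqp4 stood at 266, 212 and 362 CPM in Ctrl and at 263, 268 and 189.7 CPM in KD. These groups overlapped, and the highest and the lowest D2 libraries were Ctrl 3 and KD 3. Means were thus 171.0 ± 20.6 CPM (Ctrl) and 393 ± 32.8 CPM (KD) for B6 mice, against 279.9 ± 75.8 CPM (Ctrl) and 240.0 ± 43.7 CPM (KD) for D2 mice.

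The fitted log2 change of Aqp4 with KD was 1.20 ± 0.19 (SE, 2.30-fold) in B6 and -0.22 ± 0.19 in D2, a difference of -1.42 ± 0.27 between the strains. Leaving out single libraries gave 1.08 to 1.26 in B6. In D2 it gave -0.39 to 0.01, with the highest value without D2 Ctrl 3, and -0.08 without D2 KD 3. Because Aqp4 was chosen for these values, nothing is read from the share of genes called in the same contrasts, which was 2.64% of 15853 tested genes in B6 and 0% in D2. All D2 Ctrl libraries were above all B6 Ctrl libraries, at 1.64 times their mean, and all D2 KD libraries were below all B6 KD libraries, at 0.61 times their mean. The strains were separate in either direction for 31.7% of all genes in Ctrl and for 28.2% in KD. Averaged over treatments, a contrast that the choice of Aqp4 did not use, the strains differed by -0.00 ± 0.14 log2 (edgeR adjusted p = 0.998).

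**Figure D1:**
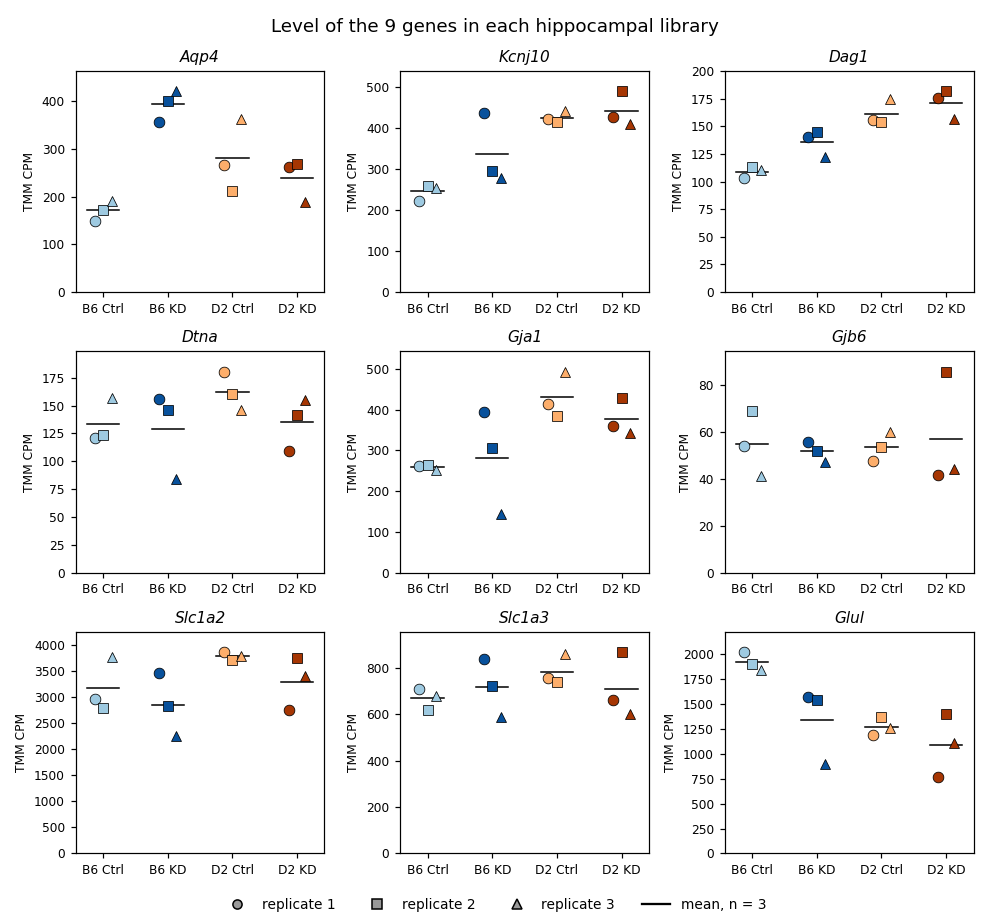
Level of each of the 9 genes in TMM-normalized CPM (y axis, from 0) in the 12 libraries, grouped on the x axis by strain and treatment. Points are libraries, marker shapes are replicate numbers that pair nothing across groups, and lines are means of 3. Aqp4 in B6 KD lies at 357 to 422 CPM, above every other Aqp4 value except the 362 CPM of D2 Ctrl 3, while Gja1, Dtna and Glul each have their lowest B6 value in B6 KD 3.

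Genes of reactive astrocytes, the state astrocytes enter after injury or inflammation, were set beside Aqp4 in each library. The list was chosen with earlier results of these data known. In unsorted tissue the RNA of its genes cannot be assigned to astrocytes. The 20 listed genes, among them the filament genes Gfap and Vim, summed to 1150, 1499 and 1192 CPM in B6 Ctrl and to 4605, 3553 and 4782 CPM in B6 KD. In D2 the sums were 1886, 1104 and 3648 CPM in Ctrl and 2983, 3202 and 1508 CPM in KD. Within each D2 group the libraries had the same order for Aqp4 as for this sum, with D2 Ctrl 3 highest among Ctrl and D2 KD 3 lowest among KD. In B6 KD the library with the highest sum, KD 3, also had the highest Aqp4, but KD 1 had a higher sum than KD 2 and less Aqp4. In B6 Ctrl the orders differed as well, with the highest sum in Ctrl 2 and the most Aqp4 in Ctrl 3.

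With KD in B6, 20 of these 20 genes had a fold change above 0, against 50.4% of all genes tested, with a median log2 change of 2.08 against 0.00. Of the 20, 3 passed the test, and 2.64% of all genes did. The 3 that passed the test were Serpina3n, a secreted protease inhibitor (2.61 ± 0.35, edgeR adjusted p = 0.0326), Gbp2, an interferon-induced GTPase (2.79 ± 0.47, adjusted p = 0.0332), and S1pr3, a sphingosine-1-phosphate receptor (2.72 ± 0.62, adjusted p = 0.0473). Gfap was at 1.70 ± 0.52 (adjusted p = 0.0981). In D2, 14 of 20 had a fold change above 0, against 51.2% of all genes, with a median of 0.27, and none passed. H2-D1 (1.05 ± 0.58) and Timp1 (1.59 ± 1.01) had the smallest p-values in D2, each with an adjusted p of 1.

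Interferon response genes, which cells induce on viral infection, were higher with KD in B6 as well. The 10 listed all passed the test there, against 2.64% of all genes. Their median log2 change was 4.33 in B6 and 1.53 in D2, where none passed. Their summed level was 68.7 to 83.5 CPM in B6 Ctrl and 412 to 1264 CPM in B6 KD, and in D2 it was 78.2 to 205 CPM in Ctrl and 99.3 to 463 CPM in KD. Among B6 KD libraries the sum was lowest in KD 3, at 412 CPM, the library with the most Aqp4. KD 3 also had the most Hp1bp3 of the B6 KD libraries, 259 CPM against 185 and 182 CPM, and the largest choroid plexus sum, 5175 CPM. The sum of 7 microglia markers was 376 to 436 CPM in B6 Ctrl and 517 to 830 CPM in B6 KD, and 0 of the 7 passed the test. The part of these genes and cells in the Aqp4 difference was not tested. The fitted B6 change of Aqp4 was 1.19 ± 0.21 with the choroid plexus score as a covariate, and it ran from 1.18 to 1.22 over the 9 fits that left out no single library. These values describe a gene chosen for this contrast, and the part of choroid plexus content in it was not tested.

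**Figure D2:**
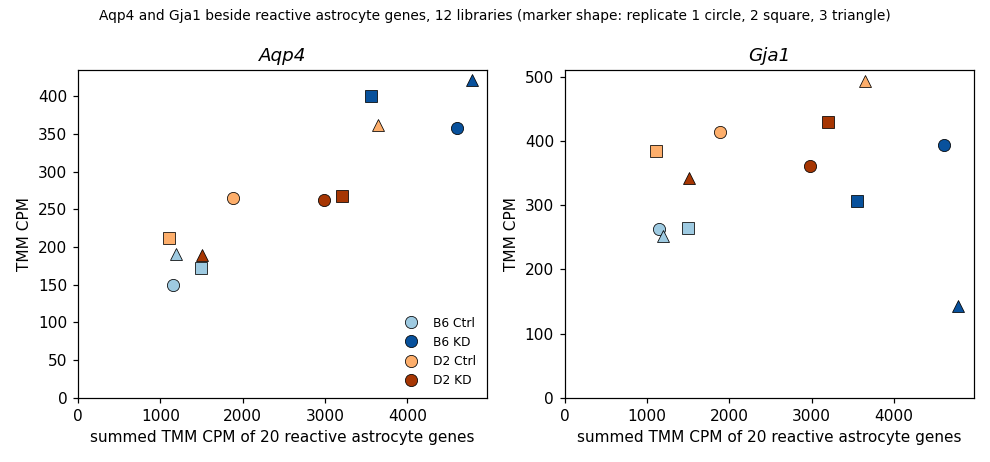
Aqp4 (left) and Gja1 (right), in TMM CPM on the y axes, against the summed TMM CPM of 20 reactive astrocyte genes on the x axis, with 1 point for each of the 12 libraries, coloured by group and shaped by replicate number. The 4 libraries with the largest sums, 3553 to 4782 CPM, have the 4 highest Aqp4 values, 357 to 422 CPM, while Gja1 is at its lowest, 143 CPM, in B6 KD 3, the library with the largest sum. These 4 are the B6 KD libraries and D2 Ctrl 3. Aqp4 was chosen for its rise in B6 KD, so the match of the B6 KD libraries is a description and lends no support.

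Kcnj10, the potassium channel that lies beside AQP4 in the endfoot, was higher in each B6 KD library than in any B6 Ctrl library, but this difference did not pass the test. Its level was 223, 259.7 and 254 CPM in B6 Ctrl and 438, 296 and 279 CPM in B6 KD. The groups did not overlap, though B6 KD 1 alone was far above the rest. The log2 change was 0.46 ± 0.15 (edgeR adjusted p = 0.123), and without B6 KD 1 it was 0.20. In D2, Kcnj10 was at 422, 415 and 441 CPM in Ctrl and at 427, 491 and 409.9 CPM in KD, with overlap and a change of 0.06 ± 0.15 (adjusted p = 1).

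Dag1, which encodes both dystroglycan subunits, was at 103, 113 and 110.4 CPM in B6 Ctrl and at 140.1, 145 and 122 CPM in B6 KD. Every B6 KD library was above every B6 Ctrl library. The log2 change of 0.32 ± 0.09 did not pass with edgeR (adjusted p = 0.0879), and it passed with DESeq2 (adjusted p = 0.0284) and with edgeR without B6 KD 3 (adjusted p = 0.0437). In D2 the libraries overlapped at 155, 154 and 174 CPM in Ctrl and 175, 182 and 156 CPM in KD, with a change of 0.09 ± 0.09 (adjusted p = 1). Dtna, the inner scaffold protein of the same complex, was at 120.5, 124 and 157 CPM in B6 Ctrl and 156, 146 and 84.6 CPM in B6 KD. In D2 it was at 181, 160.4 and 146 CPM in Ctrl and 109.7, 142 and 155 CPM in KD. Groups overlapped in both strains, with log2 changes of -0.05 ± 0.22 in B6 and -0.26 ± 0.22 in D2 (edgeR adjusted p = 0.922 and 1).

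Gja1, the main astrocytic connexin, showed its widest spread in B6 KD. The 3 B6 Ctrl libraries were close together at 262, 264 and 252 CPM, whereas the B6 KD libraries were at 394, 306 and 143 CPM. Thus 2 KD libraries were above and KD 3 below the whole Ctrl range, and the coefficient of variation was 45.3% in B6 KD and 2.40% in B6 Ctrl. The log2 change was 0.11 ± 0.28 (edgeR adjusted p = 0.852), with 0.40 without B6 KD 3 and -0.24 without B6 KD 1, so single libraries set its direction. In D2, Gja1 was at 414, 385 and 493 CPM in Ctrl and 361, 429.6 and 342 CPM in KD, a change of -0.19 ± 0.28 (adjusted p = 1).

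Gjb6, the second astrocytic connexin, stood at 54.1, 69.0 and 41.5 CPM in B6 Ctrl and 56.0, 52.1 and 47.4 CPM in B6 KD, with KD inside the Ctrl range. In D2 it was at 47.7, 53.7 and 60.1 CPM in Ctrl and 41.6, 85.9 and 44.4 CPM in KD, where KD 2 was the highest of all 12. The log2 changes were -0.08 ± 0.26 in B6 and 0.09 ± 0.26 in D2 (edgeR adjusted p = 0.896 and 1), and both changed sign when single libraries were left out.

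The glutamate transporters did not pass the test with KD in either strain. Slc1a2 was at 2966, 2778 and 3758 CPM in B6 Ctrl and 3446, 2819.6 and 2252 CPM in B6 KD, and at 3851, 3699 and 3789.6 CPM in D2 Ctrl and 2739, 3735 and 3401 CPM in D2 KD. Slc1a3 was at 709, 620.0 and 679.8 CPM in B6 Ctrl and 838, 723 and 589 CPM in B6 KD, and at 756, 739 and 859.8 CPM in D2 Ctrl and 662, 868 and 603 CPM in D2 KD. Libraries of Ctrl and KD overlapped for both genes in both strains. The log2 changes of Slc1a2 were -0.16 ± 0.17 in B6 and -0.20 ± 0.17 in D2, and those of Slc1a3 were 0.10 ± 0.15 and -0.14 ± 0.15, with edgeR adjusted p-values of 0.639 and above.

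Glul, the enzyme that makes glutamine, was the member with lower levels in every B6 KD library. It was at 2019, 1901 and 1839 CPM in B6 Ctrl and 1569, 1543.5 and 903 CPM in B6 KD, so the groups did not overlap and KD 3 was lowest. The log2 change was -0.52 ± 0.23, which did not pass (edgeR adjusted p = 0.228), and without B6 KD 3 it was -0.33. In D2, Glul was at 1191, 1368 and 1257 CPM in Ctrl and at 771, 1395 and 1110.0 CPM in KD, with overlap and a change of -0.22 ± 0.23 (adjusted p = 1).

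Of the 8 genes other than Aqp4, 0 passed the test with KD in B6, where 2.64% of all genes passed, 0 passed in D2, where 0% of all genes passed, and 0 passed for the strain by treatment interaction, where 0% of all genes passed. Without adjustment, 3262 of the 15853 genes tested had p under 0.05 in B6, 452 in D2 and 937 for the interaction. The D2 count is below the number that this threshold gives with no difference at all, and the interaction count is little above it. In B6, DESeq2 called 1 of the 8, Dag1, and 10.6% of all genes, and edgeR without B6 KD 3 called the same member and 4.94% of all genes. Ctrl and KD libraries of B6 did not overlap for 3 of the 8, Kcnj10, Dag1 and Glul, and this was so for 27.8% of all genes. In D2 they overlapped for each of the 8, and they were separate for 5.96% of all genes. The median log2 change of the 8 was 0.02 in B6 and -0.17 in D2, with 0.00 for all genes in both. The number of genes called in B6 changed with single libraries. It was 0 without B6 Ctrl 1, B6 Ctrl 3, B6 KD 1, B6 KD 2 or D2 Ctrl 1, which is in neither B6 group, and 790 without B6 KD 3. In the fits with 0 called, 2231 to 3348 genes still had an unadjusted edgeR p under 0.05. Calls with KD in B6 given here thus hold for the fit to all 12 libraries.

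**Figure D3:**
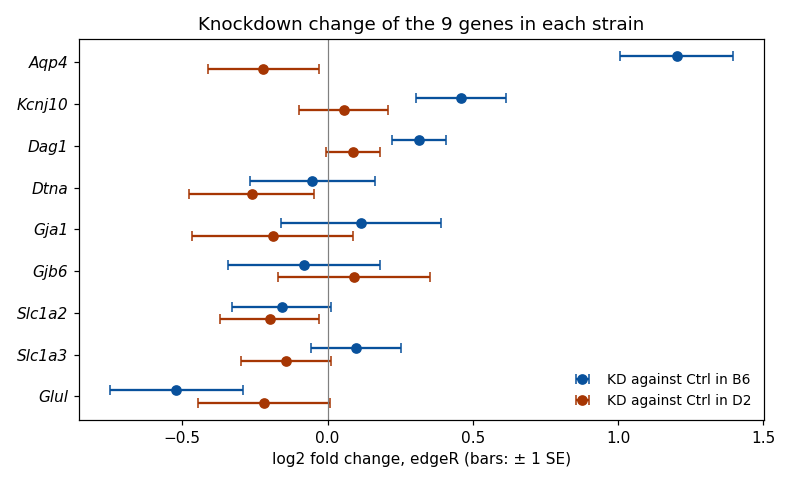
Log2 fold change of KD over Ctrl from edgeR (x axis) for each of the 9 genes (y axis) in B6 and in D2, with bars of 1 SE on each side. Aqp4 in B6 is at 1.20, Kcnj10 in B6 at 0.46 and Glul in B6 at -0.52, and the D2 estimates lie between -0.26 and 0.09.

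Between the strains, Kcnj10 and Dag1 were higher in D2, and these 2 of the 9 members passed the test averaged over treatments. Among all genes tested, 21.3% passed this comparison, 8.64% higher and 12.7% lower in D2. Kcnj10 was higher by 0.59 ± 0.11 log2 (1.51-fold, edgeR adjusted p = 0.00195). Its D2 libraries ran from 409.9 to 491 CPM and its B6 libraries from 223 to 438 CPM, and only B6 KD 1 reached the D2 range. Dag1 was higher by 0.45 ± 0.07 (1.37-fold, adjusted p = 0.000379), with every D2 library, from 154 to 182 CPM, above every B6 library, from 103 to 145 CPM. Such a separation with D2 higher held for 5.51% of all genes. Both genes passed in each of 8 fits to all libraries and in each of 12 fits without a single library.

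Gja1 was higher in D2 by 0.58 ± 0.20 log2 (edgeR adjusted p = 0.0601) and Glul lower by -0.44 ± 0.16 (adjusted p = 0.0797), and neither passed. Both passed with DESeq2 (adjusted p = 0.0166 for Gja1 and 0.0384 for Glul) and without B6 KD 3 (0.00732 and 0.0125), and in each of these fits 4 of the 9 members were called. DESeq2 called 24.6% of all genes in this comparison, and edgeR without B6 KD 3 called 23.1%. Slc1a2 was at 0.23 ± 0.12 (edgeR adjusted p = 0.227), Dtna at 0.18 ± 0.15 (0.504), Slc1a3 at 0.11 ± 0.11 (0.572) and Gjb6 at 0.06 ± 0.19 (0.877). The median over the 9 was 0.18 log2, and it was 0.02 over all genes.

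In Ctrl mice alone the strains were separate for 5 of the 8 genes other than Aqp4, with Kcnj10, Dag1, Gja1 and Slc1a3 higher and Glul lower in every D2 Ctrl library than in any B6 Ctrl library. Among all genes this held for 31.7%, with D2 higher in 13.9% and lower in 17.9%. The D2 to B6 ratio of Ctrl means was 1.73 for Kcnj10, 1.66 for Gja1, 1.48 for Dag1, 1.17 for Slc1a3 and 0.66 for Glul. In KD mice the strains were separate for 1 of the 8, Dag1, which was higher in D2, and for 28.2% of all genes. Because B6 and D2 reads were mapped to separate genomes, unequal mapping or annotation cannot be told apart from differences in RNA between the strains.

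**Figure D4:**
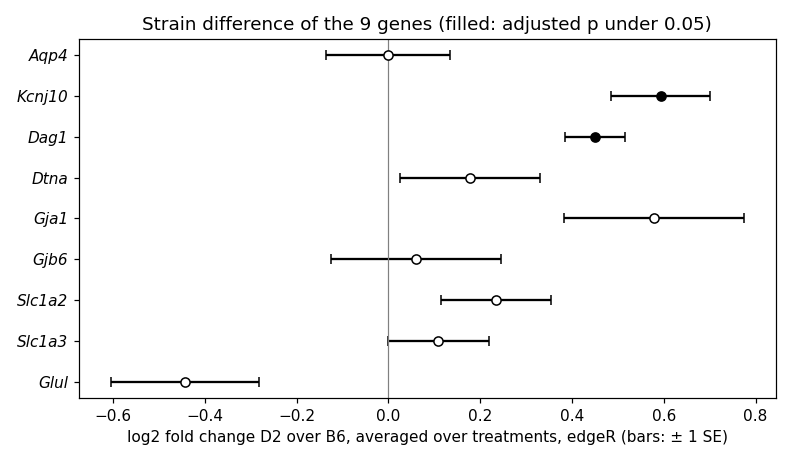
Log2 fold change of D2 over B6 averaged over treatments from edgeR (x axis) for the 9 genes (y axis), with bars of 1 SE on each side and filled points where the adjusted p was under 0.05. Kcnj10 at 0.59 and Dag1 at 0.45 are filled, and Aqp4 lies at -0.00.

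Within groups, Aqp4 varied apart from most of the other members. Over the 12 libraries, as deviations from the 4 group means, Pearson correlations among the other 8 genes ran from 0.04 to 0.87 over 28 pairs, with a median of 0.64. Those of Aqp4 with the 8 ran from -0.30 with Dtna to 0.61 with Dag1, with a median of 0.07. These are descriptions, and the points share libraries and a common scaling. Among the 3 B6 KD libraries, KD 3 had the lowest level of each of the other 8 genes. It had the highest Aqp4 of these libraries, at 422 CPM against 357 CPM in KD 1 and 401 CPM in KD 2. This library was picked after the values were seen.

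The members were also expressed relative to other astrocyte transcripts. Against the mean log2 level of 20 astrocyte identity genes, such as Aldh1l1 and Aldoc, Aqp4 was higher in KD than in Ctrl by 1.30 log2 in B6 and differed by -0.09 in D2. On this scale the difference in B6 was 0.53 for Kcnj10, 0.41 for Dag1, 0.10 for Gja1 and -0.46 for Glul. In D2 it was 0.17 for Kcnj10, 0.20 for Dag1, -0.07 for Gja1 and -0.14 for Glul. Relative Kcnj10 ran from 2.14 to 2.34 in D2 Ctrl and from 2.41 to 2.46 in D2 KD. Relative Dag1 ran from 0.81 to 0.91 in D2 Ctrl and from 1.02 to 1.13 in D2 KD. Shares of all genes on this scale were not computed. The 20 identity genes summed to 2653 to 3151 CPM in B6 Ctrl and 2265 to 2819.5 CPM in B6 KD. With KD, 6 of the 20 had a fold change above 0 in B6 and 2 of the 20 in D2. Among all genes tested this held for 50.4% in B6 and 51.2% in D2. The reference itself thus leaned lower with KD in both strains, which raises the relative values. With KD in B6, 1 of the 20 passed the test, the secreted phagocytic bridge protein Mfge8, lower by -0.76 ± 0.17 (edgeR adjusted p = 0.0467), and 0 passed in D2. Between strains 3 passed, all higher in D2: the zinc transporter gene Slc39a12 (0.42), the glutamate receptor subunit gene Grin2c (0.32) and the nuclear factor I gene Nfia (0.18). Among all genes tested, 2.64% passed with KD in B6, 0% with KD in D2 and 21.3% between strains.

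The genes most like Aqp4 over the 12 libraries, among 14172 with a mean of at least 1 CPM, were Slc16a1 (Pearson r = 0.96), Cd9 (0.95), Sgpl1 (0.93), Baz1a (0.92) and Ppp1r18 (0.92). Slc16a1 encodes the monocarboxylate transporter MCT1, Cd9 a tetraspanin and Sgpl1 the lyase of sphingosine-1-phosphate. In B6, Slc16a1 was at 63.7 ± 4.57 CPM (Ctrl) and 103 ± 6.28 CPM (KD), and in D2 at 77.8 ± 19.8 CPM (Ctrl) and 74.5 ± 10.7 CPM (KD). In B6, Cd9 was at 50.9 ± 11.0 CPM (Ctrl) and 141 ± 26.7 CPM (KD), and in D2 at 77.1 ± 30.9 CPM (Ctrl) and 79.5 ± 15.9 CPM (KD). By deviations from group means alone, the closest were Gm9855, Nfasc, Wbp1l, Slc16a1 and Vdr, at 0.93 to 0.95. Gm9855 was at 0.12 and 0.14 CPM in B6 Ctrl and KD and at 28.3 and 33.3 CPM in D2, so it met the minimum mean through D2 alone and hardly varied from 0 in B6. Members ranked far lower by level: Dag1 was 2641st at r = 0.42, Kcnj10 3175th at 0.35, and Glul 12183rd at -0.46. The likeness was picked from the same libraries and is a description only.

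Other genes were counted from a list of 15 for the endfoot and perivascular astrocyte membrane, chosen with earlier results of these data known. In unsorted tissue their RNA cannot be assigned to astrocytes. The list holds Slc16a1 and Cd9, which were also the genes most like Aqp4 by level (Pearson r = 0.96 and 0.95). With KD in B6, 1 of 15 passed, Cd9, higher by 1.47 ± 0.28 log2 (edgeR adjusted p = 0.0362), and 10 of 15 were above 0. Among all genes tested, 2.64% passed there and 50.4% were above 0. In D2, 0 of 15 passed and 6 were above 0, with Gprc5b at -0.29 ± 0.12 and Slc4a4, a bicarbonate cotransporter gene, at -0.40 ± 0.29 (adjusted p = 1 for each). Between strains, 2 of 15 passed, both higher in D2: Atp1b2, a sodium pump subunit gene (0.29 ± 0.08, adjusted p = 0.0186), and Gprc5b, an orphan receptor gene (0.29 ± 0.09, adjusted p = 0.0373). Among all genes, 21.3% passed between strains, and with KD in D2 0% passed and 51.2% were above 0. The same shares of all genes stand beside the counts of the lists that follow.

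The dystrophin complex and basal lamina list held 21 genes. With KD in B6, 0 of 21 passed and 16 were above 0, with a median of 0.22, and the smallest p-values were those of the laminin chain gene Lamc1 (0.37 ± 0.12, edgeR adjusted p = 0.106) and the nidogen gene Nid1 (0.88 ± 0.31, adjusted p = 0.14). In D2, 0 of 21 passed, 11 were above 0 and the median was 0.04. Beside these values, 7 endothelial markers summed to 233 to 293 CPM in B6 Ctrl and 275 to 327 CPM in B6 KD, with 6 of 7 above 0, a median of 0.41 and 0 called, and in D2 the median was -0.09. For 6 ependymal markers the median was 0.93 in B6 and 0.37 in D2, with 6 of 6 above 0 and 0 called in each. The part of these cells in the values of the list was not tested. Between strains, sarcospan (Sspn, -1.03 ± 0.13, edgeR adjusted p = 0.000131) and beta-dystrobrevin (Dtnb, -0.27 ± 0.05, adjusted p = 0.00383) were lower in D2, and the beta-sarcoglycan gene Sgcb (0.24 ± 0.07, adjusted p = 0.037) was higher.

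Of 11 other aquaporin genes, 4 had enough counts to be tested, and 0 of 4 passed with KD in either strain. In B6 the smallest p-values were those of Aqp11, at -0.48 ± 0.13 (edgeR adjusted p = 0.0675), and Aqp9, at 0.97 ± 0.45 (adjusted p = 0.254). Aqp11 was higher in D2 than in B6 by 0.75 ± 0.09 (adjusted p = 9.31e-05). Of the other connexin, pannexin and junction scaffold genes, 14 of 23 were tested. With KD in B6, 1 of 14 passed, the pannexin gene Panx2, lower by -0.89 ± 0.19 (adjusted p = 0.0434), and 0 passed in D2. Between strains 1 passed, the oligodendrocyte connexin gene Gjb1, lower in D2 by -1.08 ± 0.18 (adjusted p = 0.000874).

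Of the genes for glutamate, glutamine and GABA handling, 20 of 21 were tested. With KD in B6, 1 of 20 passed, the astrocytic GABA transporter gene Slc6a11, lower by -0.69 ± 0.15 (edgeR adjusted p = 0.045), and 7 of 20 were above 0. In D2, 0 of 20 passed, and the smallest p-value was that of the glutamine transporter gene Slc38a5, at 2.04 ± 0.54 (adjusted p = 1), which was at 1.69 ± 0.53 in B6 (adjusted p = 0.103). Between strains, 1 of 20 passed, the glutamate dehydrogenase gene Glud1, higher in D2 by 0.45 ± 0.06 (adjusted p = 0.00017). For the interaction, no gene of any list passed.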

How the data were processed

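The deposited table held expected counts, which the authors estimated per gene with RSEM 1.2.12 and Bowtie2 2.2.0 after mapping B6 and D2 reads to separate strain genomes. Both runs were joined for most libraries. The submitters' processing notes name GRCm38. A DESeq2-normalized table was not used. The 27 symbols that a spreadsheet had turned into dates were restored from their identifiers. Groups came from the strain and treatment labels, and replicates were numbered in deposit order.

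Expected counts were rounded, filtered with filterByExpr (15853 genes left) and fitted with edgeR 4.0.16 in R 4.3.3 (robust quasi-likelihood F-test, TMM, 4 group means, all 12 libraries). Benjamini-Hochberg adjusted p under 0.05 was called. The SE, which is approximate, was the size of the log2 change over √F. Alternatives used DESeq2 1.42.0, limma 3.58.1, other scalings, filters and covariates. The fits were tested on simulated data. Members, lists and the naming rule were chosen with earlier results of these data known. The rule named at most 4 called genes per list and comparison, or the 2 with the smallest p, and the 5 genes most like Aqp4 by log2(CPM + 1). Where fewer than these are named, and for Gfap, Slc38a5 in B6 and list examples, the choice was made after values were seen. A listed gene is not reported here.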

Additional observations from a re-analysis of the deposited data

How the results depend on the processing

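The number of genes called with KD in B6 depended most on the fit. It was 418 with edgeR, of which 66.7% were higher in KD, 1688 with DESeq2, of which 54.2% were higher, and 0 with the library total or the choroid plexus score as a covariate, where 3068 and 2847 genes had an unadjusted p under 0.05. Leaving out single libraries gave 0 to 790. In D2 it was 0 with edgeR, 1 with DESeq2 and 0 to 1 without single libraries, and for the interaction 0 with edgeR and 11 with DESeq2. Of the 8 members tested in B6, 0 were called with edgeR, 1 with DESeq2 and 0 to 1 without single libraries. Between strains 2 of 9 members were called with edgeR, 4 with DESeq2 and 2 to 4 without single libraries. Kcnj10 and Dag1 between strains were called in every fit. The direction of Aqp4 in B6 and in the interaction was also the same in each. Because Aqp4 was chosen for these values, this is a description and lends them no support.

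Some directions turned. In B6 they turned for Dtna (0.0371 with the choroid plexus covariate, -0.25 to 0.15 without single libraries), Gja1 (-0.00425 with limma-voom, -0.24 to 0.40), Gjb6 (-0.27 to 0.0898) and Slc1a3 (-0.0613 to 0.19). In D2 they turned for Aqp4 (-0.39 to 0.00568), Kcnj10 (-0.0259 to 0.11) and Gjb6 (-0.32 to 0.26), and for the interaction in Gja1 (-0.61 to 0.0370), Gjb6 (-0.24 to 0.37) and Slc1a2 (-0.17 to 0.14), all without single libraries. Between strains Aqp4 was at 0.00831 with DESeq2 size factors, 0.000699 without the low-count filter, 0.00826 with DESeq2, 0.0221 with the library total as a covariate and -0.11 to 0.0826 without single libraries, and Gjb6 was at -0.15 to 0.16 without them. The cause was not tested. No paired analysis was possible because the labels give no replicate numbers shared between groups. With 3 mice per group, the p-values rest on few libraries, and whether more depth would change a call was not tested.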
